A study of Mus musculus with 8 samples.

Results

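Il10+ Foxp3- CD4 T cells are the 570 cells, of 27420 on the authors' cell list, that carried T cell transcripts and Il10 but no detected transcript of the regulatory T cell genes Foxp3, Ikzf2 and Il2ra or of Il17a. A cell entered with at least 2 transcripts (unique molecular identifiers, UMIs) summed over Cd3e, Cd3d, Cd3g, Trac and Trbc2 and at most 1 UMI each of Cd79a, Col3a1 and C1qa, which 19833 cells met (T-gated cells), and with at least 1 UMI of Il10 and 0 UMIs of the 4 excluded genes. The levels of these 13 genes chose the cells and are given only as a description. The cells came from 8 droplet libraries of CD4-enriched colonic lamina propria, the connective tissue under the gut epithelium, from C57BL/6 mice aged 10 to 12 weeks. The 4 groups, 2 libraries each, were untreated wildtype mice, untreated S203A knock-in mice, and DSS-treated mice of both genotypes. Treated mice drank 2% dextran sulfate sodium (DSS), a chemical that damages the gut lining and causes colitis, over 7 days, had 3 days of normal water, and were taken on day 10. The sample titles name the substitution S203A, and the series title gives it another residue number.

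IL-10 is the main cytokine by which CD4 T cells restrain macrophages and other T cells in the colon, and mice that lack it develop colitis. Foxp3 regulatory T cells (Treg cells) make much of it. A second source is type 1 regulatory (Tr1) cells, which are defined by IL-10 without Foxp3, are induced by IL-27 and antigen, use the transcription factor c-Maf, and carry the inhibitory receptor LAG-3 and the integrin CD49b (Itga2). Effector T cells of the Th1 and Th17 types can also make IL-10.

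The 2 untreated wildtype libraries held 57 and 52 Il10+ Foxp3- cells, the untreated S203A libraries 52 and 62, the wildtype DSS libraries 86 and 102, and the S203A DSS libraries 52 and 107. Summed per library they held 108298 to 369793 UMIs, and the median cell had 1773.5 to 2510 UMIs and 947.5 to 1152 genes. Whole libraries held 34497509 to 46960005 UMIs over 10563 to 16133 barcodes, of which 2749 to 4725 were listed cells. Every listed cell had at least 1 Cd4 UMI. No barcode was that of an Il10+ Foxp3- cell in 2 libraries, and pairs of libraries shared 21 to 64 barcodes overall. Nothing in the labels says that replicates were prepared apart beyond 1 animal number per title, so p-values measure the spread between these libraries.

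Il10 was at 1 UMI in 322 of the 570 cells, at 2 in 118, and at 3 or more in 130, with a maximum of 27. Il10 stood at 666.5 and 823.4 CPM (counts scaled to the summed UMIs of the cells) in untreated wildtype, 824.1 and 745.4 in untreated S203A, 681.8 and 829.9 in wildtype DSS, and 932.6 and 649.0 in S203A DSS. These levels overlapped between all groups. The gene lies on chromosome 1 at 131019845 to 131024974 of GRCm38. An Il10 UMI was found in 12.0% to 20.5% of T-gated cells, in 0.644% to 2.67% of fibroblast barcodes, which should lack it, and in 14.97% to 29.0% of macrophage barcodes, which express it. Median UMIs per library were 2161.5 to 3155 in the T-gated cells, 3683 to 6884 in the fibroblast barcodes and 2173.5 to 4931 in the macrophage barcodes. With cells thinned to 1000 UMIs the shares were 5.88% to 10.1% of T-gated cells, 0% to 1.22% of fibroblast and 8.14% to 14.4% of macrophage barcodes. As counted, the T-gated shares take in all 3135 cells with Il10, of which 570 are Il10+ Foxp3- cells. The Il10+ Foxp3- cells alone made up 1.98% to 3.98% of T-gated cells, and how many of their Il10 UMIs are background was not tested.

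The label Foxp3-negative holds only as 0 detected UMIs. Of 3135 T-gated cells with Il10, 1915 carried a Treg gene without Il17a, 168 Il17a alone, 482 both, and 570 neither, and 489 cells missed the class by a single UMI. At the other edges, 53 of the 570 cells had exactly 2 T cell transcripts, 49 Il10 cells had 1 and were out, and 43 of the 570 carried a permitted UMI of Cd79a, Col3a1 or C1qa. Foxp3 was at a single UMI in 1711 of the 3477 T-gated cells that had it. Of 1884 T-gated cells with both Ikzf2 and Il2ra, 894 had no Foxp3 UMI. Per library these were 108 of 162, 92 of 140, 90 of 140 and 86 of 118 untreated (wildtype first). After DSS they were 162 of 382, 100 of 260, 95 of 206 and 161 of 476. The share was lower in every DSS library, and the reason was not tested. When the 1269 T-gated cells with both Il10 and Foxp3 (Il10+ Foxp3+ cells) of at least 2000 UMIs were thinned at random to 2000 UMIs each, 16.6% showed none of Foxp3, Ikzf2 and Il2ra. At 1000 UMIs, which 1479 cells reached, 36.8% showed none. The Il10+ Foxp3- cells had a median depth near 2000 UMIs, against 3059 to 4521.5 in Il10+ Foxp3+ cells, and how many of them are Treg cells with undetected Foxp3 was not tested.

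In shares, Il10+ Foxp3- cells made up 2.61% ± 0.203 (SD, n = 2) of T-gated cells in untreated wildtype, 2.89% ± 0.00175 in untreated S203A, 3.42% ± 0.795 in wildtype DSS and 2.52% ± 0.754 in S203A DSS. The DSS and untreated libraries overlapped, and the difference of 0.219 percentage points was not past the test (exact permutation test over libraries within genotype, two-sided, p = 0.556, adjusted p = 0.667). For the share of members among T-gated cells, DSS against untreated, where members are the Il10+ Foxp3- cells, thinning to 1000 UMIs before gating gave 0.726 points (exact permutation, adjusted p = 0.944), a T cell transcript sum of at least 4 gave 0.105, and leaving out each library gave -0.0627 to 0.500. Of all Il10 T cells they formed 21.2% ± 2.30 (SD, n = 4) without and 16.8% ± 3.05 with DSS, a difference of -4.43 points (exact permutation p = 0.111, adjusted p = 0.444). S203A and wildtype differed by -0.310 points of T-gated cells (exact permutation p = 0.667, adjusted p = 0.667) and by -1.13 points of Il10 T cells (exact permutation p = 0.556, adjusted p = 0.667). In both measures the mean was higher in S203A than in wildtype untreated and lower after DSS, and that change of sign was not tested. At 2 or more Il10 UMIs the S203A and wildtype means of T-gated cells were 1.41% and 1.15% untreated and 1.09% and 1.38% after DSS. With a T cell transcript sum of at least 4 the means of Il10 T cells were 21.0% and 18.8% untreated, and 13.3% and 15.9% after DSS. Over the 36 arrangements the smallest p these exact tests can give is 0.0556, and adjustment was over the 4 tests.

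**Figure D1:**
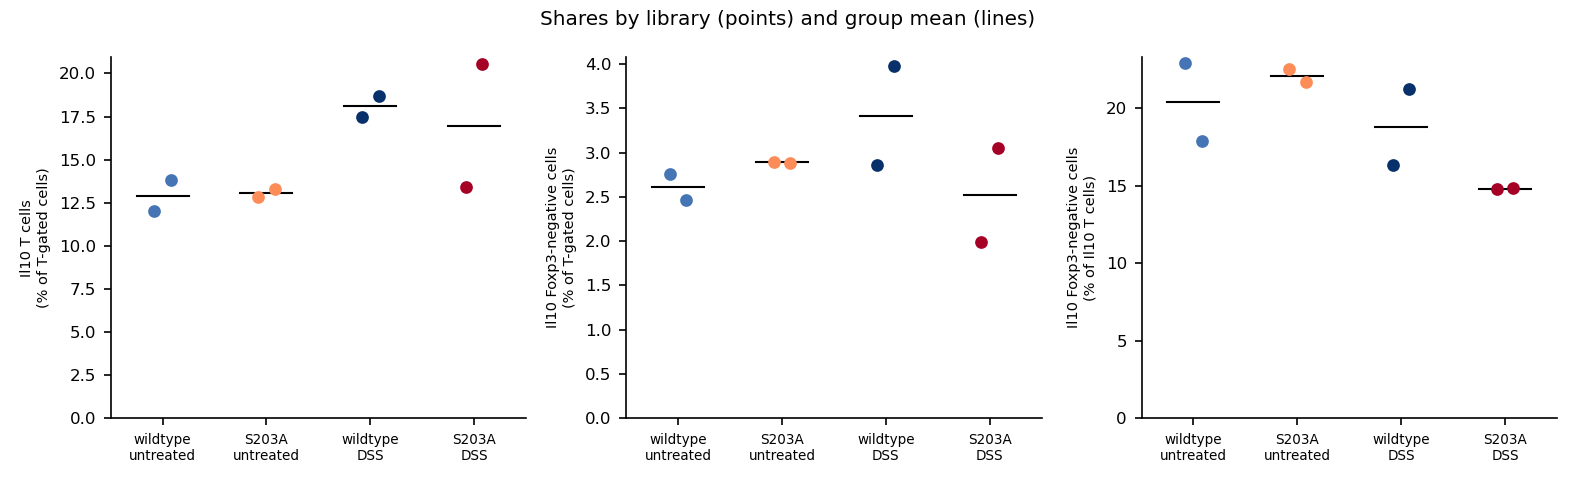
Shares in each library (points, 2 per group) and group means (lines): Il10 cells as a percentage of T-gated cells, and Il10+ Foxp3- cells as a percentage of T-gated cells and of Il10 T cells. The Il10+ Foxp3- share of T-gated cells lies between 1.98% and 3.98% and overlaps between untreated and DSS libraries.

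Depth moved these shares. Thinned to 1000 UMIs before gating, 36.4% to 56.6% of the Il10 T cells of a library fell into the class, against 14.8% to 22.9% as counted.

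Helper programmes were read from any UMI of their genes. Th1 genes were found in 32.8% of the 570 cells, Th17 genes other than Il17a in 21.9%, Tfh genes in 15.8%, Th2 genes in 12.5% and Gzmk in 6.84%, while 37.4% had none and 21.8% had 2 or more. In the 6889 T-gated cells with 0 UMIs of Il10 and of the 4 excluded genes (Il10-zero cells), the figures were 39.3%, 14.6%, 14.9%, 14.5% and 6.92%, with 35.2% at none. The median depth of Il10-zero cells was 1799 to 2537 UMIs per library. These shares follow depth and have no background share beside them: the share with none ranged over the libraries from 27.1% to 59.6% in Il10+ Foxp3- cells and from 31.1% to 40.8% in Il10-zero cells. With cells thinned to 1000 UMIs, the ranges were 49.2% to 68.6% and 55.9% to 61.6%.

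Beyond the genes of the rule, summed levels in Il10+ Foxp3- cells were compared first with the Il10-zero cells of the same 8 libraries. Lag3, Ctla4, Havcr2, Maf, Itgb8, Gzmb and Ccr2 were higher, while Tcf7, Lef1, Fasl and Gzma were lower. A higher sum does not mean that most cells carried the gene. Of the 570 cells, 515 had a UMI of Maf, 468 of Ctla4, 286 of Ccr2 and 235 of Lag3. Only 165 had Gzmb, 82 Havcr2, 50 Lrrc32 and 44 Itgb8. Of 8 coinhibitory genes tested 6 were higher and Btla was lower (-1.30 ± 0.37), with a median log2 fold change of 0.90. Of the 6, Lag3, Havcr2, Ctla4, Entpd1 and Tigit are counted again in the Tr1 list that follows, and the other is Cd274. Of 6603 genes tested, with the gate genes and Cd4 left out, edgeR's quasi-likelihood test with library as a block called 311 higher (4.71%) and 242 lower (3.67%) at a Benjamini-Hochberg adjusted p under 0.05. The median log2 fold change over all tested genes was 0.002.

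In the Tr1 list, 12 of 19 tested genes were higher and 0 lower, with a median log2 fold change of 0.75. Lag3 (chromosome 6, 124904361 to 124911705), whose product binds MHC class II and dampens T cell activation, stood at 275.2 and 455.5 CPM in untreated wildtype, 315.1 and 479.5 in untreated S203A, 231.8 and 450.6 in wildtype DSS, and 434.0 and 192.0 in S203A DSS. Il10-zero cells ranged from 45.83 to 78.94 CPM, so the classes did not overlap. The log2 fold change was 2.35 ± 0.11 (SE, adjusted p = 6.9e-17), higher in 8 of 8 libraries, and 2.48 with cells thinned to 1000 UMIs. Maf, which encodes c-Maf, a direct activator of Il10, was at 1683 ± 304 CPM (SD, n = 8) against 889 ± 178 (log2 fold change 0.85 ± 0.06). Ctla4, the inhibitory receptor that takes up CD80 and CD86, was at 1163 ± 240 against 463 ± 97.3 CPM (1.25 ± 0.08). Havcr2, which encodes TIM-3, rose by 2.07 ± 0.20, and Nfil3, a basic leucine zipper factor, by 1.07 ± 0.12. Prdm1, which encodes Blimp-1, another factor tied to Il10 in T cells, had 0.75 ± 0.20. Irf4 (0.92), Tigit (0.83), Entpd1 (0.97), Icos (0.60) and Irf1 (0.35) were also higher. Ahr (-0.06 ± 0.12), Batf (-0.11 ± 0.14), Bhlhe40 (-0.02 ± 0.09) and Pdcd1 (-0.67 ± 0.28) were not past the test.

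Of the usual Tr1 surface pair, Lag3 was present and Itga2 nearly absent. Itga2 had 6 UMIs in 6 cells, and 3 of the 570 cells carried both genes. Eomes, a factor of some Tr1-like cells, had 10 UMIs. Itga2, Eomes and the receptor gene Il10ra were too low to test here.

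Of 15 tested Treg genes that the rule did not use, 10 were higher and 0 lower, with a median log2 fold change of 0.83. Ctla4 and Tigit are in this list and in the Tr1 list. Itgb8 (chromosome 12, 119158022 to 119238802), the integrin chain that activates latent TGF-beta, stood at 36.69 and 43.80 CPM in untreated wildtype, 24.24 and 20.85 in untreated S203A, 27.27 and 84.77 in wildtype DSS, and 64.64 and 27.04 in S203A DSS, against 2.168 to 6.323 in Il10-zero cells. All 8 libraries lay above every Il10-zero value, with a log2 fold change of 3.34 ± 0.30. Lrrc32, which encodes the latent TGF-beta anchor GARP, was at 31.23 to 64.64 CPM against 2.413 to 14.10 (2.20 ± 0.29). Areg, the tissue repair factor amphiregulin (1.54 ± 0.13), Capg (1.42), the phosphatase gene Dusp4 (1.35), Socs2 (1.19), Izumo1r (0.61) and Tnfrsf4, which encodes OX40 (0.55), were also higher. Tnfrsf18, which encodes GITR (0.18 ± 0.09), and Ikzf4 were not called. Counted per cell after thinning to 1000 UMIs, the 558 of the 570 cells that had at least 1000 UMIs carried a mean of 1.94 to 2.69 of the 20 listed Treg genes per library, Il10-zero cells 1.15 to 1.35, and Il10+ Foxp3+ cells 2.65 to 3.01.

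**Figure D2:**
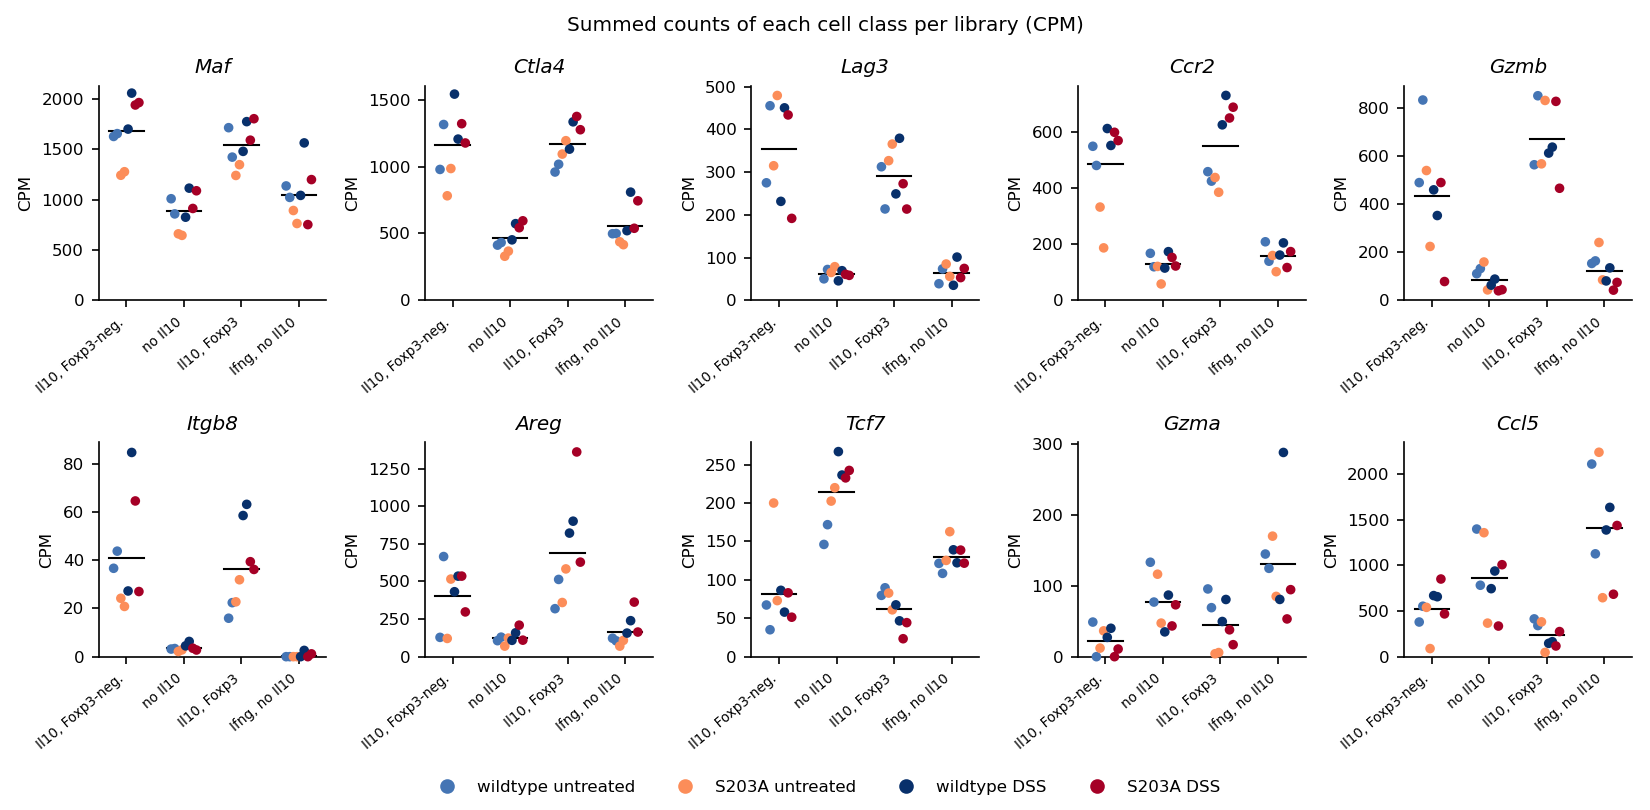
Levels in CPM of 10 genes in the summed cells of each class, with 1 point per library (8 per class, coloured by group) and the mean as a line. Lag3 and Itgb8 of Il10+ Foxp3- cells lie above every library of the classes without Il10 (for Ccr2, 1 library at 187.6 CPM lies within the range of Ifng cells), and all 3 overlap with Il10+ Foxp3+ cells, while Gzma and Ccl5 are on average lower than in the classes without Il10.

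Cytotoxic genes were split. Gzmb, which encodes granzyme B, stood at 489.2 and 832.1 CPM in untreated wildtype, 539.3 and 224.1 in untreated S203A, 459.1 and 352.5 in wildtype DSS, and 489.4 and 78.42 in S203A DSS, against 39.95 to 159.5 in Il10-zero cells. The lowest library overlapped the Il10-zero range, yet within each of the 8 libraries the Il10+ Foxp3- cells were higher (2.19 ± 0.15, adjusted p = 1.8e-12). Cst7, a cathepsin inhibitor of cytotoxic granules, was also higher (0.85). Of 9 genes tested, 5 were lower: Gzma (-1.77 ± 0.26), the activating receptor gene Klrk1 (-1.25), the chemokine gene Ccl5 (-0.79 ± 0.18), Ctsw (-0.74) and the granule gene Nkg7 (-0.63). The list's median was -0.63.

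Among Th1 genes, 2 of 12 were higher and 6 lower, median -0.40. The death ligand gene Fasl (-1.21 ± 0.27), Il12rb2 (-0.75), Il18rap (-0.69), Cxcr6 (-0.57), Il18r1 (-0.42) and Stat4 (-0.38), several of them receptor or signal genes of IL-12 and IL-18, were lower, and Il12rb1 (1.03) and Hopx (0.92) higher. Ifng itself ranged from 9.23 to 376 CPM with a mean of 134 ± 121 (SD, n = 8) against 190 ± 69.3 and was not called (-0.53 ± 0.19, adjusted p = 0.079). Tbx21, the Th1 master factor, was at -0.09 ± 0.26.

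Of 11 genes of naive and memory cells, 6 were lower and 0 higher, median -0.83. Tcf7, which encodes TCF-1, was at 81.8 ± 50.6 against 215 ± 39.6 CPM (-1.54 ± 0.17) and its partner Lef1 at -1.13 ± 0.20. Il6ra (-1.39), the lymph node exit receptor gene S1pr1 (-0.96), its activator Klf2 (-0.83) and Satb1 (-0.49) were lower too. Tfh genes gave 0 of 9 calls and genes of IL-10 receptor signalling 0 of 6. With 4.71% of all tested genes called higher and 3.67% lower, these counts of 0 say nothing particular to the 2 lists.

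Receptors that guide cells to tissue showed 5 of 15 higher and Cxcr6 lower. Ccr2, the receptor for monocyte chemoattractants, stood at 550.3, 481.8, 333.3 and 187.6 CPM in the untreated libraries (wildtype first) and at 613.6, 553.2, 600.2 and 570.6 after DSS, against 58.74 to 174.1 in Il10-zero cells (1.84 ± 0.10, adjusted p = 2.1e-15). Itgae, the CD103 chain that binds epithelial E-cadherin (1.36), the gut receptor gene Ccr9 (1.20) and Itgb7 (0.43) were also higher. Among cytokines, Areg, Csf1 (1.53) and Tgfb1 (0.31) were higher and the helper ligands Cd40lg (-1.05), Tnfsf11 (-0.72) and Tnfsf8 (-0.63) lower.

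By size alone, among genes of the same sign in all 8 libraries, Itgb8, Mmp9, a matrix protease gene (2.88), Neb, the nebulin gene (2.61), Lag3, Lrrc32, Gzmb, Havcr2, Ccr2, the sorting nexin gene Snx9 (1.80) and Gm45716 (1.75) led the rise. Gzma, the actin regulator gene Evl (-1.71), Trat1, whose product tunes the T cell receptor (-1.58), Tcf7, Sp110 (-1.31), the ATP receptor gene P2rx7 (-1.31), Esm1 (-1.23), Actn2 (-1.21), Fasl and Actn1 (-1.12) led the fall. Sp110, P2rx7, Esm1, Actn2, Fasl and Actn1 lost their call in at least 1 alternative, with a highest adjusted p of 0.28 for Actn1.

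Transcripts of other cells were measured beside these results. The 10 macrophage markers summed to 236.5 to 1102 CPM in Il10+ Foxp3- cells and 132.5 to 761.2 in Il10-zero cells, and 1 of 6 tested macrophage genes, Cd14, was called higher (1.21). The plasma cell genes Igkc (-1.55) and Jchain (-1.19) were lower. Summed over the listed markers, the 6 dendritic cell genes stood at 0 to 48.92 CPM per library (4 detected, Cd209a and Clec9a at 0 UMIs), the 4 neutrophil genes at 0 to 18.47 (Cxcr2 at 0) and the 5 fibroblast genes at 6.059 to 177.3. The 3 NK and innate lymphoid genes stood at 0 to 64.64 CPM (Ncr1 at 0 and Kit at 22 and 15 UMIs in cells with 1 and with more Il10 UMIs), the 3 gamma-delta genes at 0 to 13.64 (Trdc at 0), the 2 CD8 genes at 0 to 30.3 and the 4 ILC2 genes at 0 to 35.04 (1 detected, Il5 and Il13 at 0). With every cell left out that carried a myeloid, B cell or fibroblast marker of the filter, 400 Il10+ Foxp3- cells remained, and the log2 fold change was 2.40 for Lag3 and 2.27 for Gzmb.

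The second comparison set the class against the other large Il10 source, the 1485 Il10+ Foxp3+ cells, taken whatever their Il17a. Of 4378 genes tested, 149 were higher (3.4%) and 115 lower (2.63%), with a median log2 fold change of 0.01. The number called, 264 in all, was 120 without S203A DSS replicate 2 and 122 without wildtype DSS replicate 2. Of 7 proliferation genes 5 were lower, of 9 immediate early genes 8 were higher, of 9 heat-shock genes 4 were higher and of 9 Th1 genes 2 were higher.

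Of 16 Tr1 genes tested, 0 were called, with a median log2 fold change of 0.06. With 3.4% of all tested genes called higher and 2.63% lower, 0 of 16 says nothing particular to this list. At an adjusted p of 0.05 or more stood Lag3 (0.28 ± 0.12), Maf (0.17 ± 0.06, adjusted p = 0.064), Ctla4 (0.04 ± 0.08), Nfil3 (0.04 ± 0.12), Prdm1 (-0.47 ± 0.21) and Havcr2 (-0.58 ± 0.18, adjusted p = 0.056). Among 13 Treg genes, Itgb8 (0.11 ± 0.24) and Lrrc32 (0.03 ± 0.21) were not called and 4 were lower: the enkephalin gene Penk (-1.26), Areg (-0.74 ± 0.14), Capg (-0.60) and Tnfrsf18 (-0.31). The list's median was -0.21. The Il10+ Foxp3+ cells were picked by Foxp3, and the class by 0 UMIs of Foxp3, Ikzf2 and Il2ra. Lower Treg genes are thus partly built into this comparison, and how far was not tested.

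Ifng (0.95 ± 0.26), the IL-18 receptor gene Il18r1 (0.45), Ccl5 (1.31 ± 0.21), Ctsw (1.12) and the naive-type factors Lef1 (0.69) and Klf2 (0.45) were higher than in Il10+ Foxp3+ cells. At 2 or more Il10 UMIs Klf2 was at -0.26. Gzmb was lower (-0.71 ± 0.18), at 433 ± 225 against 669 ± 147 CPM (SD, n = 8). Itgae was at 29.7 ± 19.97 against 66.7 ± 33.2 CPM (-1.19 ± 0.23) and was lower in 8 of 8 libraries. Ccr2 did not differ past the test (-0.15 ± 0.10).

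Of 9 immediate early genes, which respond within minutes to a stimulus, 8 were higher, median 0.43, with Zfp36 at 0.69 ± 0.11. Of 9 heat-shock genes 4 were higher: Hspa1b (0.82), Dnajb1 (0.65), Hsph1 (0.41) and Hsp90aa1 (0.35). In the other class comparisons 0 of these 9 were higher, with 5 lower against Il10-zero cells (median -0.20) and 7 lower against the Ifng cells described next (median -0.37). Transcripts of other cell types were higher too, with the plasma cell genes Jchain (0.66) and Igkc (0.45), both of the 2 B lineage genes tested, and Apoe (1.33 ± 0.19), 1 of 2 macrophage genes tested, and their part in these differences was not tested. The 5 lower proliferation genes, with a list median of -0.80, were led by the replication clamp partner gene Pclaf (30.6 ± 34.2 against 97.8 ± 23.7 CPM, -1.50 ± 0.33). The DNA ligase gene Lig1 (-1.36), the condensin gene Smc2 (-1.34), the replicative helicase genes Mcm3 (-1.17) and Mcm4 (-0.99) and the chromatin remodeller gene Hells (-1.15) were among the 10 largest called falls of the same sign in 8 of 8 libraries and at 20 CPM or more in the higher class, with Ermn (-1.15), H1f0 (-0.97), Alcam (-0.94) and Itgae. By the same limits, which leave out genes named above such as Apoe, Ccl5 and Ctsw (each higher in 7 of 8 libraries), the 10 largest rises were Tspan3 (0.93), Pde3b (0.85), Arap2 (0.81), Snhg12 (0.76), Socs3, the feedback inhibitor of cytokine signals (0.73 ± 0.12), Zfp36, Lef1, Lars2 (0.67), the chaperone gene Dnajb1 (0.65) and Chd1 (0.62). Depth differed between these classes as given above, and with only cells of 2000 to 4000 UMIs 17 of the 35 named or listed genes with a value were no longer called and 1 more, the immediate early gene Dusp1, turned direction (-0.13). The Ifng call was lost without S203A DSS replicate 2 (0.42, adjusted p = 0.27), and Lef1, Klf2 and Tnfrsf18 were each lost without several of the libraries in turn.

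**Figure D3:**
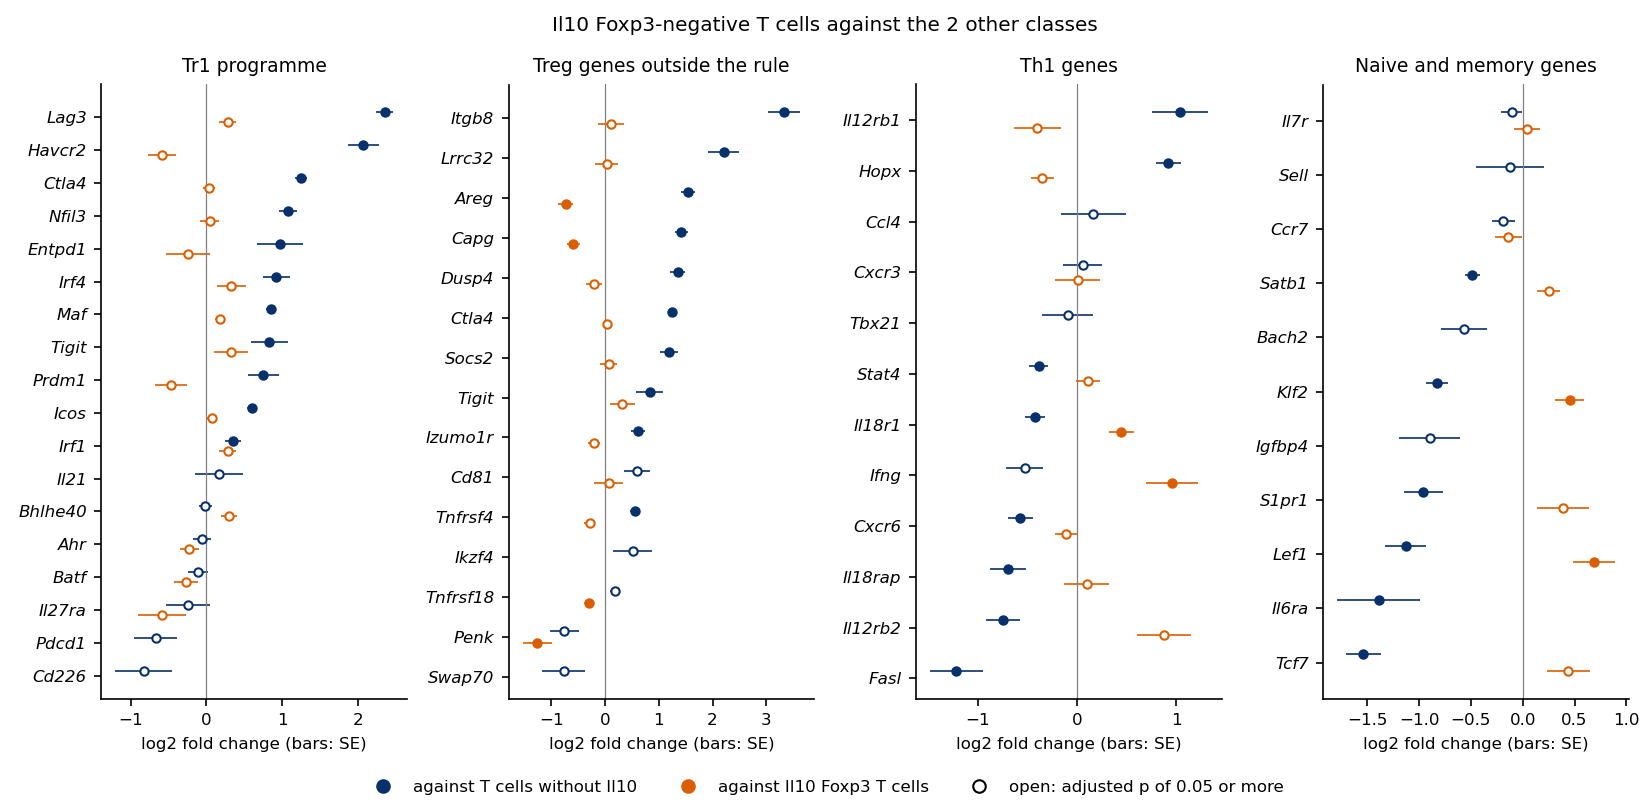
Log2 fold changes (points, bars are SE) of Il10+ Foxp3- cells against Il10-zero cells (blue) and against Il10+ Foxp3+ cells (orange) for 4 gene lists, with open points at an adjusted p of 0.05 or more. In the Tr1 panel 0 orange points are filled, which is near the share of all tested genes called in that comparison. Lag3, Havcr2 and Ctla4 have the largest filled blue values there.

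Since Il10-zero cells include naive cells, the class was also compared with the 1462 of them that carried Ifng, an effector population. Of 3792 genes tested, 222 were higher (5.85%) and 228 lower (6.01%), with a median of -0.01. Of 13 Tr1 genes 7 were higher, with Lag3 at 2.30 ± 0.15, Havcr2 at 1.91, Nfil3 at 1.02, Ctla4 at 1.004 ± 0.10 and Maf at 0.64 ± 0.08, and Bhlhe40 was lower (-0.52). Of 10 Treg genes 7 were higher, led by Izumo1r (1.51) and Capg (1.26), and Penk was lower. Itgb8 was too low to test here and was at 0 to 2.60 CPM in the Ifng cells.

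Against the Ifng cells, 7 of 9 Th1 genes were lower, including Tbx21 (-0.96 ± 0.25), Fasl (-1.99) and Il12rb2 (-1.36), and 5 of 7 cytotoxic genes were lower, including Gzma (-2.53), Ccl5 (-1.51) and Nkg7 (-1.48), while Gzmb was higher (1.62 ± 0.18). The comparison cells were picked by Ifng, itself a Th1 gene, which 77 of the 570 Il10+ Foxp3- cells carried. Lower Th1 genes are thus partly built into this comparison, and how far that holds for the cytotoxic genes was not tested. All 4 Tfh genes tested were higher: Tox (1.19), Tox2 (0.79), Slamf6 (0.76) and Sh2d1a (0.59). All 6 proliferation genes tested were lower, median -0.78. Neb (2.61), Il6st, the signalling chain shared by IL-6 and IL-27 receptors (2.18 ± 0.20), the chemokine gene Cxcl2 (1.88), Ubash3b (1.87), the IL-1 receptor gene Il1r1 (1.80), Ets2 (1.80) and Tnfrsf9, which encodes 4-1BB (1.59), were other rises. Serpinb9, the granzyme B inhibitor gene (-1.55), Ermn, Plscr1 (-1.41), Cd40lg (-1.36) and Il18rap (-1.34) were among the falls.

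Cells of the class were also split by their Il10 UMIs, the measure that chose them. The 248 cells with 2 or more Il10 UMIs had a median of 2056 UMIs and the 322 with 1 had 2171.5. Ctla4 was at 1480 ± 334 against 939 ± 227 CPM (SD, n = 8) and higher in 8 of 8 libraries. Lag3 (482 against 268 CPM), Maf (1888 against 1525), Ccr2 (621 against 390) and Prdm1 (106 against 46.9) were each higher in 7 of 8, and Tcf7 (54.3 against 105) in 1 of 8. Havcr2, Ifng and Bhlhe40 were each higher in 4 of 8, Itgb8 in 3 and Ahr in 2. With the cells of all 8 libraries pooled, Ccr2 was found in 70.3% of the 165 cells with Gzmb (median 2041 UMIs) and in 42.0% of the rest (2169). Both genes varied between libraries, as given above, and most other gene pairs that were counted are not given here. These are descriptions, without a test.

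DSS was first compared in wildtype mice, where edgeR called 0 of 3307 genes (0%) (before adjustment 305 genes had p below 0.05), and DESeq2 called 3. Among the smallest in p were Crip1 (-1.15 ± 0.21), Lars2 (1.10 ± 0.22) and the ribosomal RNA overlapping transcript Gm42418 (0.92), none called. Averaged over both genotypes, 4 libraries against 4, edgeR called 27 genes higher (0.816%) and 24 lower (0.726%) (before adjustment 553 genes had p below 0.05). Gm42418 was at 27200 to 44710 CPM in the 4 untreated and 60760 to 77930 in the 4 DSS libraries, with no overlap, and its part in these calls was not tested. Of 14 Tr1 genes (median -0.04), 10 Treg genes, 8 Th1 genes and 4 cytotoxic genes 0 were called, which is near the share over all tested genes (median -0.01) and says nothing particular to these lists. Lag3 (-0.30 ± 0.27), Ctla4 (0.35 ± 0.15), Maf (0.38 ± 0.12, adjusted p = 0.14), Ccr2 (0.64 ± 0.19, adjusted p = 0.12) and Gzmb (-0.72 ± 0.38) did not pass. Maf and Ccr2 did not overlap between untreated and DSS libraries. For Ccr2 the highest untreated level lay just under the lowest DSS level. The share of all tested genes without overlap is not given here, so the lack of overlap says nothing particular to Maf and Ccr2.

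Averaged over genotypes, 4 of 9 heat-shock genes fell with DSS (list median -0.86). In S203A alone 4 of 9 fell (median -1.68), in wildtype alone 0 of 9 were called (median 0.13), and no gene's difference between the genotypes was called. Hspe1 (chromosome 1, 55088132 to 55091307), the mitochondrial co-chaperone gene, stood at 507.5 and 674.5 CPM in untreated wildtype, 1485 and 1183 in untreated S203A, 431.8 and 437.2 in wildtype DSS and 387.8 and 413.7 in S203A DSS. The untreated S203A libraries were the highest and all DSS libraries lay below all untreated ones (-1.11 ± 0.17, adjusted p = 0.0017, called in every alternative run). Hspd1 (-1.19 ± 0.21), its partner, Hsp90aa1 (-1.07 ± 0.19) and Hsp90ab1 (-0.49 ± 0.11) were called lower too, but their DSS and untreated libraries overlapped. Wildtype untreated replicate 1 lay within the DSS range for Hspd1 and Hsp90aa1 and below it for Hsp90ab1, and the untreated S203A libraries were the highest. The ubiquitin gene Ubb also fell (-1.28 ± 0.19), at 2318 to 4102 CPM untreated and 963.7 to 1977 after DSS. Hspd1 lost its call without wildtype untreated replicate 2 (adjusted p = 0.060) or wildtype DSS replicate 2 (0.072), Hsp90aa1 without the latter (0.075), and Hsp90ab1 without any of 7 libraries in turn. In Il10-zero cells Hspe1 was at 503.7, 900.5, 1563, 1703, 682.9, 449.9, 577.5 and 484.2 CPM in the order above, highest in untreated S203A, and there the DSS and untreated libraries overlapped.

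Other falls were the immunoproteasome gene Psmb8 (-1.11 ± 0.19), at 359.1 to 466.6 CPM untreated and 169.5 to 236.4 after DSS, the proteasome gene Psmb2 (-1.25), Prr7 (-1.36), the nuclear lamina gene Lmna (-0.998), Cebpz (-1.04), AY036118 (-1.12), Crip1 (-0.97) and the AP-1 gene Jund (-0.85). Of the untreated Psmb8 UMIs, 28 of 67 in wildtype replicate 1 and 20 of 77 in S203A replicate 2 lay in 1 cell each. Rises included the mitochondrial leucyl-tRNA ligase gene Lars2, at 443.0 to 880.5 CPM untreated and 1413 to 1744 after DSS (1.30 ± 0.16), the lysophospholipid receptor gene P2ry10 (1.20 ± 0.20), Zfp207 (1.33), Numa1 (1.29), Ppp2r5c (1.19), Satb1 (0.82) and the mRNA decay gene Zfp36 (0.97 ± 0.21). For Lars2 and P2ry10 the DSS and untreated libraries did not overlap. Of these genes, Lars2, Ubb and AY036118 were called in 8 of 8 fits with 1 library left out, Psmb8 and P2ry10 in 7, Prr7 in 5, Numa1 and Ppp2r5c in 4, Lmna and Zfp207 in 3, Psmb2 in 2 and Cebpz in 1. Leaving out wildtype DSS replicate 2 lowered the number of called genes from 51 to 8, and leaving out wildtype untreated replicate 2 lowered it to 17. In Il10-zero cells Lars2 was at 573.3 to 1037 CPM untreated and 1233 to 1897 after DSS.

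Some of the rises were in genes known from macrophages and stroma. Of these, Thbs1, Vcam1 and Cd14 rested on few cells (25, 35 and 36 of the 570). Lgmn, which encodes the lysosomal protease legumain, stood at 73.38, 52.56, 36.36 and 15.64 CPM untreated (wildtype first) and 122.7, 316.8, 184.7 and 137.9 after DSS, with no overlap (2.14 ± 0.36, adjusted p = 0.0048), on 196 UMIs in 114 cells. Without cells that carried myeloid or B cell transcripts it was 1.59 (adjusted p = 0.049), and with at least 2 Il10 UMIs per cell 1.51 (adjusted p = 0.22). Thbs1, which encodes thrombospondin 1, had 1 UMI untreated and 147 after DSS (ratio 101.2, 95% counting interval 17.87 to 4022), 87 of them in 1 cell, and lost its call without wildtype DSS replicate 2 (adjusted p = 0.076) or S203A DSS replicate 2 (0.11). The adhesion gene Vcam1 had 2 against 47 UMIs (16.17, 4.234 to 137.4). Cd14 (2.23, 95 UMIs in 36 cells) lost its call in 6 of 8 fits with 1 library left out.

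The macrophage marker list summed to 236.5 to 370.1 CPM in untreated and 263.6 to 1102 in DSS libraries of the class, 132.5 to 402.3 and 211.1 to 761.2 in Il10-zero cells. Of its 778 UMIs in the class, 383 lay in 16 cells with 5 or more, and their part in the rises of Lgmn, Thbs1, Vcam1 and Cd14 was not tested beyond the values above.

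**Figure D4:**
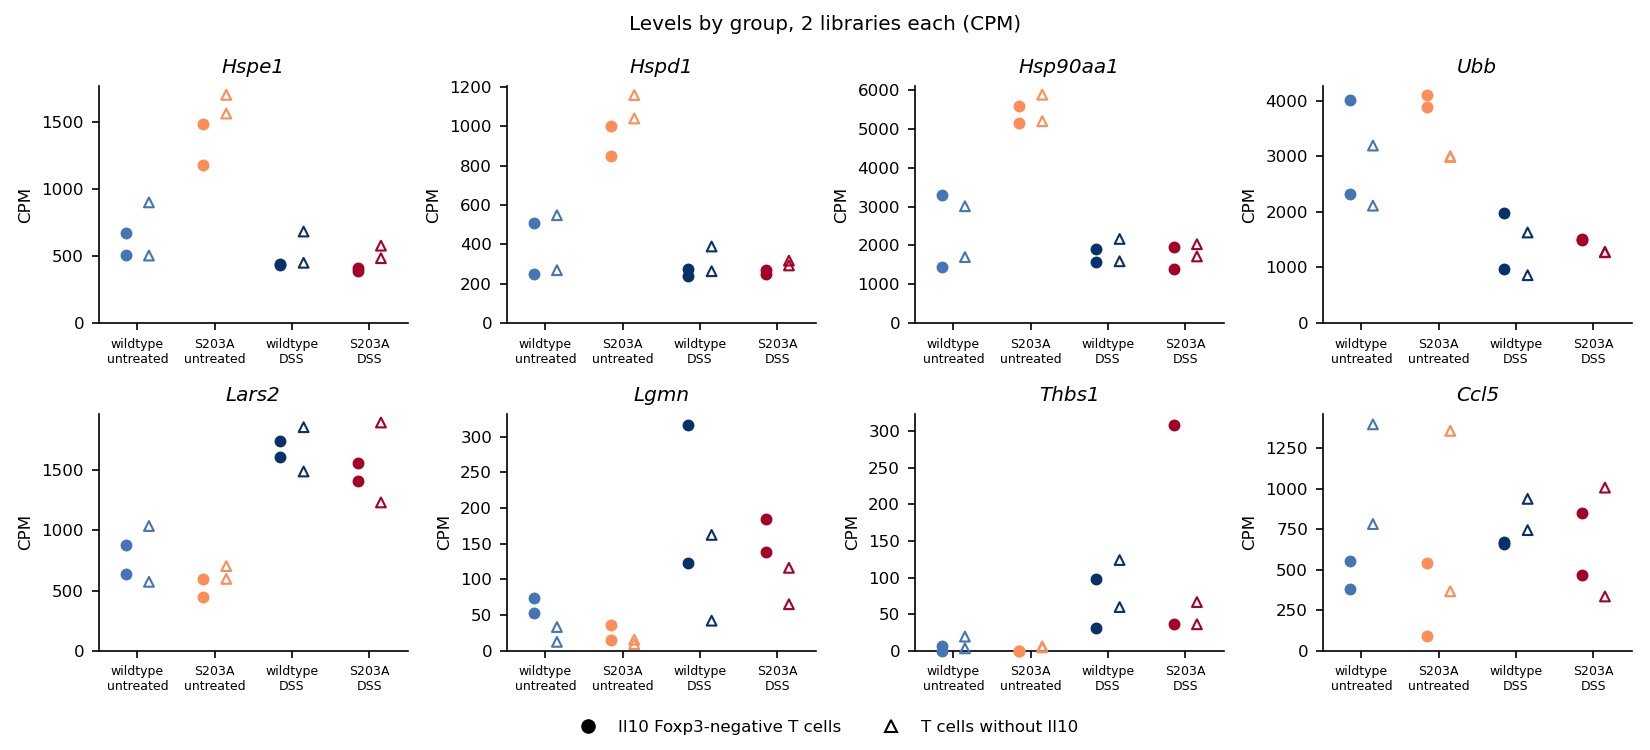
Levels in CPM of 8 genes in the summed Il10+ Foxp3- cells (filled circles) and Il10-zero cells (open triangles), 2 libraries per group. Hspe1, Hspd1 and Hsp90aa1 are highest in the untreated S203A libraries of both classes, and Lars2 and Lgmn are higher in all DSS libraries of the Il10+ Foxp3- cells than in their untreated ones.

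S203A against wildtype was asked separately without and with DSS. In untreated mice edgeR called 1 gene of 3307 (0.0302%) (before adjustment 199 genes had p below 0.05) and 5 called by DESeq2. The gene was Hspb1, a small heat-shock protein gene, at 0 and 35.04 CPM in wildtype and 399.9 and 166.8 in S203A (4.22 ± 0.68, adjusted p = 0.026), on 98 UMIs in 18 S203A cells. It lost its call without wildtype untreated replicate 1 (adjusted p = 0.57) or S203A untreated replicate 1 (0.19), and also without cells carrying myeloid or B cell transcripts. Hsph1 (2.18 ± 0.40), Hspe1 (1.20 ± 0.23) and Hsp90ab1 (0.84 ± 0.16) came next, each at an adjusted p of 0.052. The 9 genes of the heat-shock list, which does not hold Hspb1, gave 0 calls and a median of 1.21, against 0.0003 over all genes. In Il10-zero cells Hspb1 was at 25.25 and 60.81 CPM in wildtype and 150.4 and 195.9 in S203A.

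After DSS, S203A against wildtype gave 0 calls (0%) (before adjustment 98 genes had p below 0.05) and 0 by DESeq2. The smallest p belonged to Dcn, Mrpl43 (-1.52), Cyfip1 (-1.51) and S100a4 (-0.85), each at an adjusted p of 0.9996. Dcn, a fibroblast matrix gene, had 37 UMIs in S203A, 33 of them in 1 cell, and 1 in wildtype DSS libraries.

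DSS in S203A mice called 17 of 3307 genes (0.514%), 7 higher and 10 lower. The chaperone genes Hspe1 (-1.75 ± 0.23), Hspd1 (-1.84 ± 0.29), Hsp90aa1 (-1.68 ± 0.27), Hspb1 (-4.03 ± 0.58) and Hsp90ab1 fell, as did Ubb (-1.43), Psmb8 (-1.25) and AY036118 (-1.34). Ccl20, the ligand of the Th17 receptor CCR6, had 39 UMIs in 6 untreated and 2 UMIs in 2 DSS cells of the S203A libraries (ratio 26.12, 95% counting interval 6.763 to 223.3), at 90.89 and 125.1 CPM untreated and 9.234 and 2.704 after DSS, and both untreated wildtype libraries were under 9 CPM. Of the untreated UMIs, 11 of 15 in S203A replicate 1 and 16 of 24 in replicate 2 lay in 1 cell each. Lars2 (1.49 ± 0.22), P2ry10 (1.49 ± 0.29), Lgmn (2.55 ± 0.55), Dgat1 (1.21), Vps37b (1.001), Gm42418 (1.12) and Thbs1 rose, Thbs1 from 0 UMIs in both untreated libraries. The DSS effect was not shown to differ by genotype: the interaction gave 0 calls (0%) (before adjustment 155 genes had p below 0.05) and 0 by DESeq2. The smallest adjusted p there was 0.163, for Dcn, 33 of whose 69 UMIs lay in 1 cell. Hsph1 (-2.29 ± 0.55), Hsp90ab1 (-0.90 ± 0.23) and Hspe1 (-1.29 ± 0.33) had an adjusted p of 0.78.

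Whether DSS moved Il10+ Foxp3- cells differently from Il10-zero cells was tested as the difference of both effects over 8283 genes, of which 4 were called (0.0483%) (before adjustment 381 genes had p below 0.05) and 0 by DESeq2. Ccl5, a chemokine of cytotoxic and Th1 cells, stood at 379.1, 551.8, 539.3 and 88.61 CPM untreated and 668.2, 655.9, 849.5 and 467.8 after DSS in the class, and at 1396, 781.3, 1356 and 367.0 untreated and 744.0, 936.7, 335.0 and 1006 after DSS in Il10-zero cells (1.25 ± 0.23 on the log2 scale, adjusted p = 0.0057). All 790 Ccl5 UMIs lay in 84 of the 570 cells. In wildtype DSS replicate 1, 133 of 147 lay in 1 cell, and in S203A DSS replicate 1, 62 of 92. Cells with Ccl5 numbered 6 of 57, 7 of 52, 9 of 52 and 7 of 62 untreated (wildtype first). After DSS they numbered 10 of 86, 17 of 102, 5 of 52 and 23 of 107. The call was lost without S203A DSS replicate 1 (0.69) and with only cells of 2000 to 4000 UMIs (0.09, adjusted p = 0.98). The other 3, Igfbp5, Rgs5 and Timp3, are genes of fibroblasts and pericytes that were found in 8, 5 and 10 of the 570 cells.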

How the data were processed

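The 8 libraries, 2 per group, hold single-cell transcript data of colonic lamina propria cells captured in droplets. The authors deposited UMI counts per gene and barcode and a list of kept cells, and Cell Ranger 3.1.0, Seurat 4.0.1 and the mm10 genome are named in the submitters' processing notes. Gene rows of 7 tables that carry only row numbers were named through a deposited symbol list. The member cells and the gene lists were chosen with earlier results of these data known.

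Counts were summed per library and class and tested with edgeR 4.0.16 (R 4.3.3): filterByExpr, TMM scaling and the quasi-likelihood test, with p-values adjusted by Benjamini-Hochberg over all tested genes. Group comparisons were fitted over all 8 libraries, and class comparisons had library as a block. The SE is the log2 fold change divided by the square root of F. CPM is scaled to the UMIs of the class, and counting intervals cover counting error only. Named genes are those of the lists and, by size of change, up to 10 per direction between classes (same sign in 8 of 8 libraries) and 8 per direction between groups (no overlap), at 20 CPM or more in the higher side; with fewer than 4 calls, the 4 of smallest p. Other called genes that are named (Crip1, Gm42418, Vps37b and Dgat1 among them) were chosen after their values were seen. On simulated data 54.7% of genes changed by log2 1 and 97.7% by log2 2 were recovered for DSS averaged over genotypes, and 86.0% and 99.0% against Il10-zero cells. The simulation gave every gene the same dispersion and did not model UMIs heaped in single cells. Recovery at the spread of these libraries was not measured. A few listed genes, counted in the lists, are not reported by name here. Doublets were not removed: the Scrublet caller of scanpy 1.11.5 set no usable threshold, and leaving out the highest 8% of scores per library was an alternative chosen after seeing the data. Other alternatives were DESeq2 1.42.0, no filter, other gates and depths, and each library left out.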

Additional observations from a re-analysis of the deposited data

Results flagged for a closer look

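The DSS change in Il10+ Foxp3- cells differed from that in Il10-zero cells for 4 genes, by edgeR's interaction test over 8 libraries. The fitted log2 difference was 8.90 for Igfbp5, 7.40 for Rgs5, 6.11 for Timp3 and 1.25 for Ccl5, and the first 3 depend on the prior count because the untreated cells held 0 to 3 of their UMIs.

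Igfbp5, an insulin-like growth factor binding protein gene of stroma, had 0 UMIs in untreated and 43 in DSS cells of the class, at least 9.86-fold higher when the untreated group is set to a limit of 3 UMIs, and 35 of the 43 lay in 1 cell of wildtype DSS replicate 2. Rgs5, a pericyte gene, had 1 against 60 UMIs (ratio 41.29, 95% counting interval 7.132 to 1658) in 5 cells. Of these UMIs, 41 lay in 2 cells of S203A DSS replicate 2 and 18 in 1 cell of wildtype DSS replicate 2. Timp3, a matrix protease inhibitor gene, had 3 against 49 UMIs (11.24, 3.627 to 56.37) in 10 cells, 3 of them untreated. Of the 49, 40 lay in 2 cells of S203A DSS replicate 2. The counting intervals of Rgs5 and Timp3 do not cover this heaping in few cells. Without wildtype DSS replicate 2 the calls of all 3 were lost, and those of Rgs5 and Timp3 were also lost without S203A DSS replicate 2. Rgs5 was lost as well without wildtype untreated replicate 1, and Timp3 without S203A untreated replicate 2. Fibroblast markers in the class summed to 6.06 to 177.3 CPM per library, and their part in these differences was not tested.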

How the results depend on the processing

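The share of members among T-gated cells, DSS against untreated, where members are the Il10+ Foxp3- cells, was reversed at 2 or more Il10 UMIs per cell (-0.0438 points). Numbers of called genes moved by over 1.5 times as follows, and the cause was not tested. With DESeq2 they were 3 for DSS in wildtype, 5 for S203A untreated and 0 for the DSS difference between classes. With no filter on low counts they were 32 for DSS in wildtype, 39 for S203A untreated, 14 for S203A after DSS, 75 for DSS in S203A, 106 for DSS averaged, 18 for the DSS difference between genotypes, 430 against Il10+ Foxp3+ cells and 11 for the DSS difference between classes. At 2 or more Il10 UMIs they were 0 for S203A untreated, 7 for DSS in S203A, 16 for DSS averaged and 105 against Il10+ Foxp3+ cells. S203A untreated gave 0 without cells carrying myeloid or B cell transcripts. With only the 4 libraries compared it gave 11, and DSS in S203A gave 46. Cells of 2000 to 4000 UMIs gave 361 against Il10-zero cells and 199 against Ifng cells. Cells thinned to 1000 UMIs gave 138 against Il10+ Foxp3+ and 281 against Ifng cells. With no library block, which pairs classes of 1 library, the numbers were 282, 58 and 217 against Il10-zero, Il10+ Foxp3+ and Ifng cells. Without the highest Scrublet scores, an alternative chosen after seeing the data, the DSS difference between classes gave 2. Against Il10+ Foxp3+ cells, Klf2 was at -0.26 at 2 or more Il10 UMIs and Dusp1 at -0.13 in cells of 2000 to 4000 UMIs.

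Leaving out each library in turn, the share differences ran from -0.0627 to 0.500 (DSS, of T-gated), -5.68 to -3.17 (DSS, of Il10 T cells), -0.591 to -0.0284 (S203A, of T-gated) and -2.39 to 0.121 (S203A, of Il10 T cells). Called genes ran from 0 to 6 for DSS in wildtype, 0 to 13 for S203A untreated, 0 to 14 for S203A after DSS, 14 to 39 for DSS in S203A, 8 to 56 for DSS averaged, 0 to 3 for the difference between genotypes, 444 to 540, 120 to 305 and 339 to 423 against Il10-zero, Il10+ Foxp3+ and Ifng cells, and 3 to 22 for the difference between classes. Of 712 left-out values of listed and named genes against Il10-zero cells, 637 kept direction and call, 75 lost the call and 0 reversed. The call was lost in 95 of 467 against Il10+ Foxp3+ cells, 53 of 624 against Ifng cells, 77 of 200 for DSS averaged and 24 of 120 for DSS in S203A, with 0 reversed in each. No paired analysis between groups was run. The titles' animal numbers are shared by no 2 libraries, and no label says whether neighbouring numbers mark a pair. With 52 to 107 cells per library, genes of low level could not be tested.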
